A study of Mus musculus with 39 samples.

Results

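Mouse lung fibroblasts kept for 72 h with C1q at 1 or 10 µg/ml were compared with untreated fibroblasts at 0 h. Every library labelled with either dose and 72 h was taken, 3 per dose and 6 in all, together with the 3 untreated libraries, which makes 9 of the 39 libraries of the series. Both doses entered with equal weight. The cells came from lungs of wild-type C57BL/6 mice, freed with Liberase and DNase I, enriched on a Percoll step and cleared on a magnetic separator of leukocytes (CD45), endothelial cells (CD31 and CD146), epithelial cells (EpCAM) and erythroid cells (Ter119). They were grown in DMEM with fetal bovine serum and HEPES, cleared of nonadherent cells, moved to 24-well plates and starved of serum for 24 h before C1q was added. The series also held the same doses at 2, 24 and 48 h and a dose of 100 µg/ml. PolyA RNA was turned into 5′ sequencing libraries, in which reads start near the 5′ end of a transcript, and the authors deposited read counts per gene. Cells kept for 72 h without C1q were not analysed here, so C1q and time in culture cannot be told apart, and every difference below is one between treated cells at 72 h and untreated cells at 0 h. The labels do not say whether replicates came from separate mice or cultures, so p-values measure the spread between libraries, which may be technical.

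C1q starts the classical pathway of complement and is built from A, B and C chains that are made mainly by macrophages. When it binds antibody or a damaged surface, its proteases C1r and C1s cleave C4 and C2, and the cascade runs on to C3 and to the pore formed by the terminal components. Fibroblasts lay down the collagen, elastin and proteoglycans of the lung wall, and they also make C1r, C1s, C3, chemokines and acute-phase proteins.

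The C1q libraries held 2492980 to 3012518 counts (median 2695454), and the untreated libraries held 1912679 to 2519096. All 39 libraries lay between 1806106 and 3012518. Levels are given in CPM, a library's counts scaled to a common total with the trimmed mean of M values (TMM). The most abundant gene row, LOC118568312, took 11.8 to 13.8% of the counts in C1q libraries, against 7.07 to 7.83% in untreated ones, and its part in the results below was not tested beyond a fit without it. On the first principal component, which held 63.4% of the variance, the C1q libraries lay at 23.3 to 31.8 and the untreated ones at −58.6 to −53.3. One library stood apart within its group: the third replicate at 1 µg/ml lay at −24.3 on the second component (6.66% of the variance), and the other replicates at that dose at 24.0 and 13.1. Main counts are therefore also given without it.

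The fibroblast identity given by the labels was checked against marker genes. Fibroblast genes were abundant in all 9 libraries: summed levels of 20 alveolar fibroblast markers were 5569 to 5944 CPM in C1q libraries, against 3748 to 3893 CPM in untreated ones, and those of 18 adventitial (vessel sheath) fibroblast markers were 3442 to 3936 CPM in C1q libraries, against 1483 to 1589.6 CPM in untreated ones. Other cell types were also present. The 25 macrophage and other myeloid markers summed to 1539.7 to 1968 CPM in C1q libraries, against 330.0 to 368 CPM in untreated ones, and the 17 epithelial markers summed to 149 to 217 CPM in C1q libraries, against 741 to 856 CPM in untreated ones. Endothelial markers summed to 135 to 158 CPM in C1q libraries, against 105 to 117 CPM in untreated ones, and mesothelial markers, those of the cells lining the lung surface, to 779.6 to 1031 CPM in C1q libraries, against 425 to 444 CPM in untreated ones. The 11 of 13 lymphocyte markers present in the table summed to 2.13 to 5.79 CPM in C1q libraries, against 2.1 to 2.98 CPM in untreated ones, and 3 of them had no count in any of the 9 libraries. In such bulk samples, fewer cells of a type and less RNA per cell cannot be told apart.

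RNA from the treated cultures at 72 h held more transcripts of complement, acute-phase, small proteoglycan and macrophage genes. It held fewer of genes for DNA replication, mitosis, sterol synthesis, epithelial keratins and ribosomes. Of 14419 genes tested, 3077 rose (21.3%) and 3385 fell (23.5%), together 44.8%, at an adjusted p under 0.05 by edgeR's quasi-likelihood test. These shares are the background against which each list below is to be read. A change of at least 2-fold, a log2 difference of 1, was reached by 1826 of them (12.7% of genes tested), of which 1039 rose and 787 fell. In 5773 genes (40%), all 6 C1q libraries lay on one side of all 3 untreated ones. Without the third replicate at 1 µg/ml, 6086 genes were called in place of 6462. Leaving out each of the 9 libraries in turn gave 5523 to 6428, and 4361 genes (67.5% of those called) kept their call every time. The median log2 difference over all tested genes was 0.02. Genes were then ranked that had a mean log2(CPM + 1) of at least 3 and groups that did not overlap. They also had to keep their call on leaving out each library, and predicted genes and unnamed transcripts were left out. The 12 largest rises were Fcrls, Mrc1, Saa3, Cxcl13, Lrg1, Col28a1, C1qb, Clec3b, Wfdc17, Adamtsl2, C1qc and Chl1, at log2 differences of 3.94 to 6.69. The 12 largest falls by the same rule were Cldn18, Gprc5a, Kif4, Ager, Ckap2l, Knstrn, Hbegf, Bub1, Kif23, Ccnb1-ps, Cep55 and Cdc20, at −3.59 to −3.09.

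At this time no gene differed between 10 and 1 µg/ml at an adjusted p under 0.05, by edgeR (0% of 14419 tested) or by DESeq2. At an unadjusted p under 0.05 the counts were 611 by edgeR and 348 by DESeq2. Without the filter on low counts edgeR called 7 genes, all higher at 10 µg/ml: Cdk2ap1, Dpy19l1, Eid2, Gm46442, Rn4.5s, Saa3 and Zfp786. Saa3 had 1203 CPM in the first replicate at 10 µg/ml, while the other C1q libraries of both doses had 411 to 577 CPM. C1qb had a log2 difference of 0.02 ± 0.11, adjusted p = 1 between 10 and 1 µg/ml, and C7 one of −0.06 ± 0.15, adjusted p = 1. The missed threshold does not show that the doses act alike, and these SEs bound what could be seen. Both doses are pooled in what follows. Most C1q values are ranges over both doses, in which a split by dose cannot be seen.

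The genes that carry the account below are shown by library, each on its own axis.

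**Figure D1:**
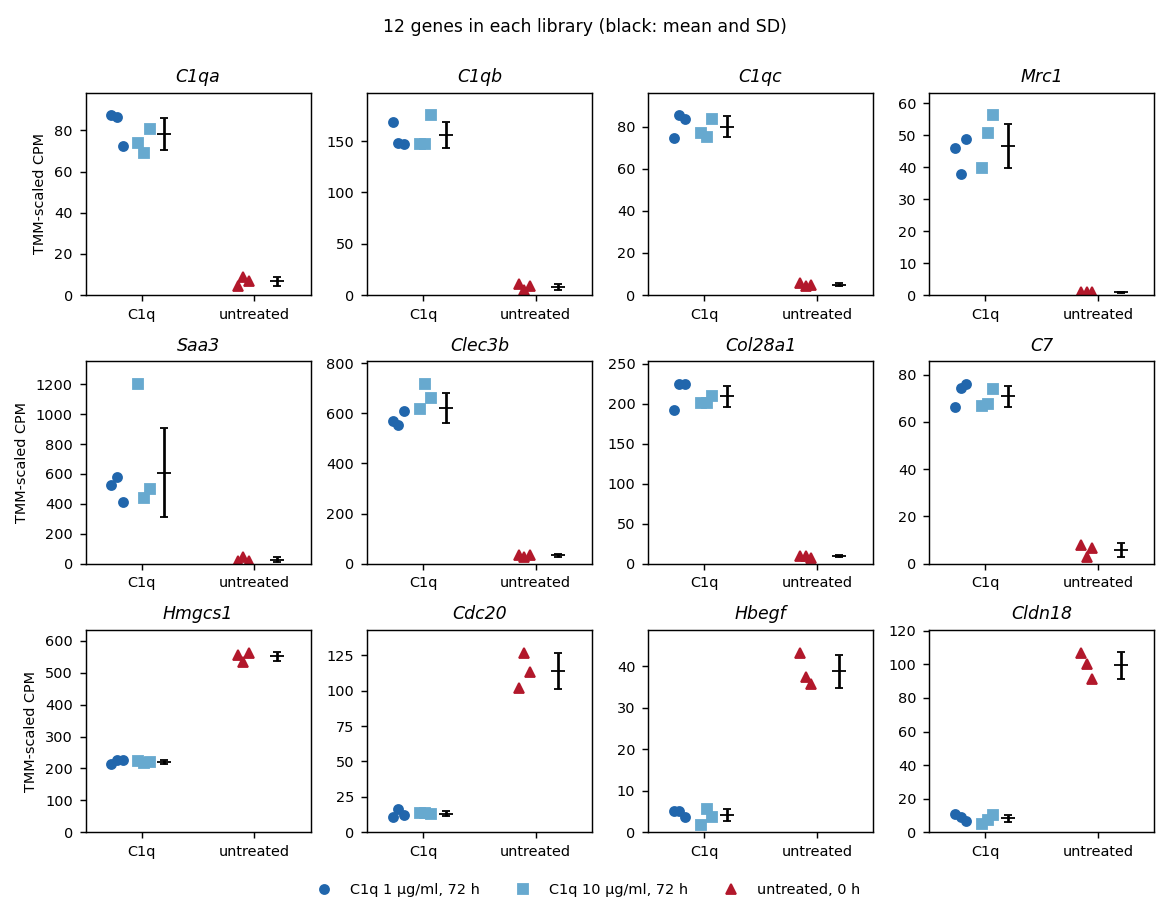
Levels of 12 genes in each library (CPM, linear axis), with C1q libraries at 72 h on the left (circles, 1 µg/ml; squares, 10 µg/ml) and untreated libraries on the right (triangles); black marks are the mean and SD. In each panel all 6 C1q libraries lie on one side of the 3 untreated ones, above them for C1qa, C1qb, C1qc, Mrc1, Saa3, Clec3b, Col28a1 and C7, and below them for Hmgcs1, Cdc20, Hbegf and Cldn18.

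The genes of C1q itself were among the largest rises. C1qa, C1qb and C1qc encode the A, B and C chains, and lie side by side on chromosome 4 (GRCm38.p6, chr4:136895916-136898844, chr4:136880126-136886200 and chr4:136889801-136892936). C1qb had 147 to 175 CPM (median 148) in C1q libraries, against 4.74, 8.94 and 10.4 CPM in untreated ones (log2 difference 4.23 ± 0.16, adjusted p = 3.2e-26). C1qa had 69.0 to 87.4 CPM (median 77.3) in C1q libraries, against 4.41, 6.81 and 8.95 CPM in untreated ones (3.57 ± 0.17, adjusted p = 8.7e-23). C1qc had 74.6 to 85.5 CPM (median 80.5) in C1q libraries, against 4.21, 4.68 and 5.61 CPM in untreated ones (4.02 ± 0.19, adjusted p = 1.5e-22). For each chain every C1q library lay far above every untreated library, and the doses were mixed among the treated values. These chains are also macrophage markers, and the other myeloid markers rose with them (described further on); their part in the result was not tested.

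The proteases that C1q activates rose as well. C1ra, the mouse C1r gene, had 140.5 to 206 CPM (median 189) in C1q libraries, against 43.4, 43.7 and 56.3 CPM in untreated ones (1.94 ± 0.11, adjusted p = 3.4e-20). C1s1, the main C1s gene, had 406 to 461 CPM (median 414) in C1q libraries, against 96.6, 108 and 111 CPM in untreated ones (2.01 ± 0.08, adjusted p = 1.5e-24). In both genes the groups did not overlap. The copies C1rb and C1s2 also rose, by 1.88 and 1.95 on the log2 scale, but they are near-identical to C1ra and C1s1, and how reads were divided between them is uncertain. C1rl, a related protease, was not called (−0.18 ± 0.19, adjusted p = 0.45). Of the 8 genes of C1q chains and C1 proteases, 7 rose and none fell, where 21.3% of all tested genes rose, and the median log2 difference was 1.98, against 0.02 over all genes. Their summed level was 959 to 1035 CPM in C1q libraries, against 189.9 to 215 CPM in untreated ones.

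Further down the cascade, 10 of 11 tested components rose and 1 fell (median 1.86). C3, the component on which all 3 complement pathways converge, had 465 to 547 CPM (median 529.7) in C1q libraries, against 52.8, 59.5 and 61.7 CPM in untreated ones (3.16 ± 0.13, adjusted p = 5.4e-25). C7, part of the membrane pore, had 66.5 to 76.1 CPM (median 70.8) in C1q libraries, against 2.63, 6.81 and 8.02 CPM in untreated ones (3.54 ± 0.21, adjusted p = 3.3e-19). All C1q libraries were higher than all untreated ones for both. Colec11, a collectin that starts the lectin pathway, rose by 2.98 ± 0.37, and Cfp (properdin, which stabilises the alternative convertase) by 2.08 ± 0.22 on the log2 scale. C4b rose by 2.05 ± 0.13 and its near copy C4a by 1.86 ± 0.32; reads may be divided between these copies. Cfb, the protease of the alternative pathway, rose by 1.59 ± 0.16. Masp1, a protease of the lectin pathway, fell by 1.78 on the log2 scale, with 0.387 to 2.48 CPM (median 1.74) in C1q libraries, against 4.74, 5.61 and 6.39 CPM in untreated ones (adjusted p = 1.1e-04).

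Regulators and receptors of the cascade rose as well: 9 of 12 rose, none fell, and the median was 1.53. Cfi, which degrades C3b and C4b, had 21.3 to 31.3 CPM (median 26.9) in C1q libraries, against 1.60, 2.55 and 4.74 CPM in untreated ones (3.19 ± 0.33, adjusted p = 2.5e-11). Serping1, the inhibitor of C1r and C1s, had 2029 to 2618 CPM (median 2491) in C1q libraries, against 729, 764 and 775 CPM in untreated ones (1.65 ± 0.08, adjusted p = 2.4e-22). For both genes every C1q library lay above every untreated one. The anaphylatoxin receptors C5ar1 and C3ar1 rose by 2.47 ± 0.27 and 2.17 ± 0.23; both are also abundant on myeloid cells. Cd55, which speeds decay of the C3 convertases, rose by 1.40 ± 0.15.

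Genes described in the literature as C1q receptors or binding proteins went both ways, 3 up and 5 down of 9 tested (median −0.36). Cd93, a membrane glycoprotein of endothelial and myeloid cells, had 34.3 to 48.4 CPM (median 46.5) in C1q libraries, against 5.26, 9.62 and 9.79 CPM in untreated ones (2.39 ± 0.21, adjusted p = 2.5e-13). Lair1, an inhibitory leukocyte receptor, rose by 2.24 ± 0.54 and Lrp1, a scavenger receptor, by 0.61 ± 0.15. The members that fell were Itga2 (−1.44 ± 0.15), C1qbp (−0.79 ± 0.11), Itgb1 (−0.40 ± 0.07), Cd44 (−0.38 ± 0.09) and Calr (−0.36 ± 0.07). C1qbp is mostly a mitochondrial matrix protein and Calr an endoplasmic reticulum chaperone; the genes of both compartments are described below.

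Macrophage and other myeloid genes rose almost throughout: 22 of 23 tested markers rose, none fell, and the median log2 difference was 2.59. This list holds C1qa, C1qb and C1qc, so its counts and sums throughout are not separate from those of the C1q chain list. Mrc1, the mannose receptor of resident macrophages, had 37.9 to 56.3 CPM (median 47.4) in C1q libraries, against 0.802, 0.852 and 1.05 CPM in untreated ones (5.63 ± 0.32, adjusted p = 8.0e-20), which was among the 12 largest rises ranked above. Cd68, a lysosomal protein of macrophages, had 42.2 to 66.5 CPM (median 51.7) in C1q libraries, against 4.21, 8.52 and 10.02 CPM in untreated ones (2.74 ± 0.18, adjusted p = 1.8e-17). Csf1r, the receptor that macrophages need to survive, had 17.4 to 27.2 CPM (median 21.5) in C1q libraries, against 2.63, 4.41 and 5.11 CPM in untreated ones (2.4 ± 0.26, adjusted p = 1.5e-10). The C1q libraries were above the untreated ones in each of these. Ptprc, the gene of the CD45 antigen used for depletion, had 10.4 to 15.9 CPM (median 14.6) in C1q libraries, against 2.63, 3.41 and 4.01 CPM in untreated ones (2.01 ± 0.26, adjusted p = 1.8e-08), so that some CD45-coding RNA was counted in every library. Ear2, a ribonuclease gene, had no count in the untreated libraries and 3.84 to 7.56 CPM (median 5.52) in C1q libraries; against a floor of 3 counts over the untreated group it was at least 12.2-fold higher, and the list median stays at 2.59 with Ear2 at that bound. Fcrls, a gene of macrophages and microglia, had 44 to 67 counts in each C1q library and 1 in all in untreated libraries. Counts rebuilt from CPM, which came out slightly higher (322 against 1), gave a ratio of 139. Its 95% exact counting interval was 24.8 to 5515. Wfdc17, a secreted protein that macrophages express, had 60.8 to 91.0 CPM (median 77.6) in C1q libraries, against 2.98, 3.61 and 6.31 CPM in untreated ones (4.19 ± 0.23, adjusted p = 5.1e-20). Cd14 rose least among those called (0.72 ± 0.16), and Lyve1 was not called (0.51 ± 0.39, adjusted p = 0.29).

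The other blood cell lists held few genes that could be tested. Of 4 tested genes of dendritic and antigen presenting cells, Cd74, the invariant chain of class II MHC, fell (−0.65 ± 0.19, adjusted p = 0.0043) and 3 were not called. The neutrophil and mast cell list had 1 tested gene, which was not called (0 or 1 rise on leaving out a library), and no lymphocyte marker passed the filter on low counts. Pf4, a platelet chemokine that macrophages also express, rose (2.25 ± 0.21, adjusted p = 3.6e-12).

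Acute-phase genes formed another group of rises, 9 of 10 tested, with 1 fall (0 or 1 on leaving out a library; median 1.60). Saa3, an inducible serum amyloid A made outside the liver, had 411 to 1203 CPM (median 514) in C1q libraries, against 15.3, 16.4 and 46.3 CPM in untreated ones (4.59 ± 0.27, adjusted p = 3.8e-19). The highest value, 1203 CPM, came from the first replicate at 10 µg/ml, and the other 5 lay between 411 and 577 CPM, still far above untreated libraries. Lcn2, which withholds iron from bacteria, had 4.14 to 22.3 CPM (median 7.36) in C1q libraries, against 0.401, 0.852 and 1.58 CPM in untreated ones (3.20 ± 0.57, adjusted p = 9.3e-06). Hp (haptoglobin, which binds free haemoglobin) rose by 2.37 ± 0.11, Steap4 (a metalloreductase) by 1.93 ± 0.13 and Serpina3n (a protease inhibitor) by 2.46 ± 0.09. The Serpina3 genes are close paralogs, so their separate values are uncertain. Lrg1, a leucine-rich glycoprotein induced in inflammation, had 14.9 to 28 CPM (median 23) in C1q libraries, against 0, 1.28 and 1.58 CPM in untreated ones (4.57 ± 0.36, adjusted p = 6.8e-15). Ptx3, a pentraxin that binds C1q, was the 1 member that fell (−0.63 ± 0.26, adjusted p = 0.047); it had 4.91 to 23 CPM (median 7.57) in C1q libraries and 12, 14.7 and 16.6 CPM in untreated ones, and its highest C1q value came from the same library as that of Saa3. The call of Ptx3 was lost on leaving out the first or second replicate at 1 µg/ml, the second or the third at 10 µg/ml, or the second or the third untreated library (adjusted p = 0.053 to 0.17). Cebpb, a transcription factor of the acute-phase response, had 188 to 279.5 CPM (median 245) in C1q libraries, against 17.4, 24.7 and 27.7 CPM in untreated ones (3.34 ± 0.34, adjusted p = 1.8e-11).

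Chemokine genes rose in 10 of 14 tested and fell in 1 (median 0.68). Cxcl13, which draws B cells, had 27.4 to 59.7 CPM (median 33.3) in C1q libraries, against 1.20, 1.28 and 2.1 CPM in untreated ones (4.57 ± 0.33, adjusted p = 4.6e-16). Ccl11 (eotaxin) had 8.89 to 18.2 CPM (median 10.9) in C1q libraries, against 1.60, 2.98 and 5.26 CPM in untreated ones (1.92 ± 0.32, adjusted p = 3.8e-06). Both were higher in all C1q libraries. Ccl12 had 80 counts in C1q libraries and 3 in untreated ones, a ratio of 11.5 with a 95% exact counting interval of 3.81 to 57.1. Cx3cl1, a membrane-bound chemokine, rose by 2.01 ± 0.43, and Cxcl12, a chemokine of stromal cells, by 1.04 ± 0.07. Cxcl14 was the member that fell, with 149 to 164 CPM (median 157) in C1q libraries, against 417, 446 and 501 CPM in untreated ones (−1.53 ± 0.09, adjusted p = 6.8e-20).

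Other inflammatory lists had few calls or calls in both directions. Of 31 tested interferon-induced genes, 3 rose, 1 fell and 27 were not called, with a median of 0.07. Leaving out a library gave 1 to 3 rises and 1 or 2 falls in that list, and a fit of the 9 libraries compared alone gave 4 rises and 6 falls. The members called were Ifi27l2a (1.14 ± 0.19), Ifitm1 (0.45 ± 0.16), Ifitm2 (0.31 ± 0.09) and Ifit2 (−0.78 ± 0.14). Ifitm1 lost its call without the first replicate at 10 µg/ml (adjusted p = 0.096) or without the first (0.18) or the third untreated library (0.098), and Ifitm2 without the third untreated library (0.096). Isg15, a ubiquitin-like protein, was at 0.14 ± 0.50, adjusted p = 0.85, and Irf7, a transcription factor, at 0.30 ± 0.47, adjusted p = 0.64. Feedback and adhesion genes of NF-kB rose in 6 of 16 and fell in 2 (4 to 7 rises and 1 or 2 falls on leaving out a library; median 0.24), with Nfkbia, the gene of the inhibitor, at 0.70 ± 0.10, adjusted p = 9.8e-08. The prostaglandin list had 6 rises and 7 falls among 18. Within it Hpgds, which makes prostaglandin D2 in haematopoietic cells, had 13.6 to 17.8 CPM (median 15.1) in C1q libraries, against 0.802, 1.05 and 3.83 CPM in untreated ones (2.95 ± 0.31, adjusted p = 5.5e-11). Ptgs2, the inducible cyclooxygenase, had 4.26 to 6.40 CPM (median 5.89) in C1q libraries, against 28.5, 29.4 and 30.5 CPM in untreated ones (−2.38 ± 0.19, adjusted p = 6.3e-15). These enzymes thus lay on opposite sides, with no overlap between groups in either gene. Hpgd, which inactivates prostaglandins, rose by 1.43 ± 0.23, and Ptgs1, the constitutive cyclooxygenase, fell by 0.93 on the log2 scale.

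**Figure D2:**
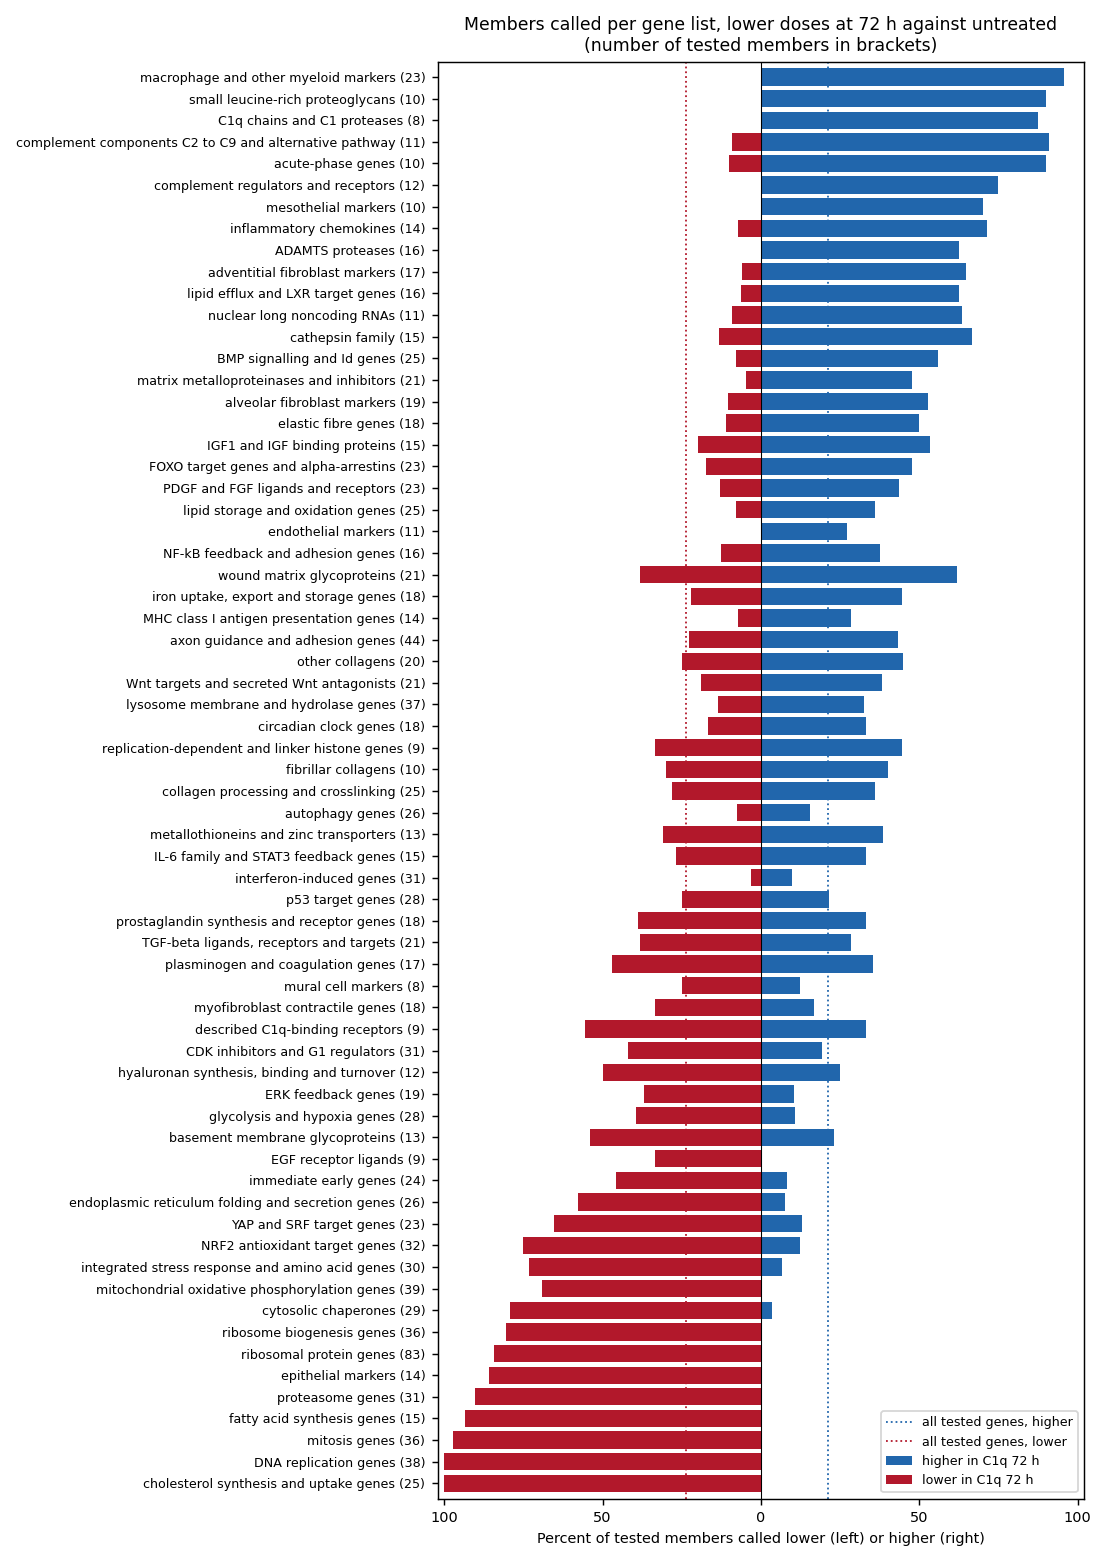
Share of the tested members of each gene list that fell (left) or rose (right) in C1q libraries at 72 h against untreated libraries, in percent of tested members; dotted lines mark the shares among all 14419 tested genes, 23.5% lower and 21.3% higher. The DNA replication, mitosis and cholesterol lists reach to or near 100% on the left, and the myeloid, complement and acute-phase lists reach far right.

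Genes of the extracellular matrix went up in some families and both ways in others. Small leucine-rich proteoglycans, which bind collagen and space its fibrils, rose in 9 of 10 tested and fell in none (median 0.99). Dcn (decorin) had 1427 to 1566 CPM (median 1484) in C1q libraries, against 331, 352 and 361 CPM in untreated ones (2.1 ± 0.08, adjusted p = 1.2e-25). Fmod (fibromodulin) had 199 to 243 CPM (median 224) in C1q libraries, against 18.9, 25.5 and 33.7 CPM in untreated ones (3.05 ± 0.13, adjusted p = 8.6e-24). Podn (podocan) rose by 2.44 ± 0.09 and Lum (lumican) by 1.24 ± 0.14. Among elastic fibre genes 9 of 18 rose and 2 fell (median 0.30). Eln, the elastin gene, had 1232 to 1771 CPM (median 1357) in C1q libraries, against 366, 368 and 431 CPM in untreated ones (1.86 ± 0.11, adjusted p = 1.7e-19). Mfap4, a microfibril protein that is also a marker of alveolar fibroblasts, had 1254 to 1530.0 CPM (median 1391) in C1q libraries, against 174, 175 and 193 CPM in untreated ones (2.95 ± 0.08, adjusted p = 2.0e-30). Every C1q library exceeded every untreated library for these genes. Ltbp4 and Mfap2, which tie growth factors and microfibrils to the fibre, rose by 2.04 ± 0.18 and 1.60 ± 0.12.

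Fibrillar collagens were divided, with 4 rises (2 to 4 on leaving out a library) and 3 falls among 10. Col3a1, the gene of type III collagen, had 2937 to 3256 CPM (median 3065) in C1q libraries, against 1709, 1795 and 1954 CPM in untreated ones (0.76 ± 0.08, adjusted p = 1.2e-11). Col1a1, the main chain of type I collagen, had 877 to 1039 CPM (median 935) in C1q libraries and 1169, 1274 and 1503 CPM in untreated ones (−0.48 ± 0.09, adjusted p = 2.2e-05). Col11a1 fell by 1.13 and Col5a3 by 0.99 on the log2 scale. Of 20 other collagens, 9 rose and 5 fell. Col28a1, a rare collagen with von Willebrand domains, had 192 to 225 CPM (median 206) in C1q libraries, against 7.66, 9.62 and 10.00 CPM in untreated ones (4.52 ± 0.14, adjusted p = 1.0e-29), also among the 12 largest rises ranked above. Col6a1, of the microfibrillar collagen VI, rose by 1.28 ± 0.10, whereas Col4a4, of the collagen IV of specialised basement membranes, fell by 2.95 on the log2 scale. Lamb3, a laminin chain of the epithelial basement membrane, fell by 2.07 on the log2 scale, while epithelial markers fell in the same libraries; their part was not tested. Collagen processing and crosslinking genes had 9 rises and 7 falls among 25, with a median of 0.01.

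Matrix metalloproteinases and their inhibitors rose in 10 of 21 tested and fell in 1 (0 or 1 on leaving out a library; median 0.35). Mmp2, the gelatinase of fibroblasts, had 232 to 274 CPM (median 253) in C1q libraries, against 76.3, 85.2 and 96.6 CPM in untreated ones (1.56 ± 0.10, adjusted p = 8.0e-18). Timp2, which both inhibits and helps to activate it, had 1136 to 1346 CPM (median 1265) in C1q libraries, against 438, 460.1 and 477 CPM in untreated ones (1.46 ± 0.09, adjusted p = 2.6e-18). Adamtsl2, a secreted protein of microfibrils, had 28.8 to 42.6 CPM (median 39.97) in C1q libraries, against 1.05, 2.13 and 2.81 CPM in untreated ones (4.14 ± 0.28, adjusted p = 3.5e-17), the largest difference of the ADAMTS list, in which 10 of 16 rose; leaving out a library gave 4 to 11 rises in that list. Wound matrix proteins were all called, 13 up and 8 down of 21. Fn1 (fibronectin) had 1358 to 1733 CPM (median 1598) in C1q libraries, against 481, 483 and 638 CPM in untreated ones (1.55 ± 0.15, adjusted p = 2.1e-12), and Vcan (versican) fell by 1.43 on the log2 scale. Thbs4 had 60 counts in C1q libraries and 1 in untreated ones, a ratio of 25.9 with a 95% exact counting interval of 4.48 to 1041. Has2, the main hyaluronan synthase of fibroblasts, had 1.28 to 3.20 CPM (median 2.00) in C1q libraries, against 24, 24.2 and 26.8 CPM in untreated ones (−3.53 ± 0.19, adjusted p = 2.1e-20). Plau, the urokinase gene, rose by 1.16 ± 0.25.

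Fibroblast subtype markers were called up more often than down. The adventitial list had 11 rises and 1 fall (0 or 1 on leaving out a library) among 17 (median 0.47). Clec3b (tetranectin, a plasminogen-binding protein) had 553 to 717 CPM (median 614) in C1q libraries, against 27.9, 35.3 and 35.7 CPM in untreated ones (4.22 ± 0.11, adjusted p = 2.4e-31). Dpt (dermatopontin, a collagen-binding protein) had 336 to 383 CPM (median 346) in C1q libraries, against 18.7, 24 and 28.4 CPM in untreated ones (3.90 ± 0.12, adjusted p = 2.6e-29). Pi16, a marker of stem-like adventitial fibroblasts, rose by 1.73 ± 0.27. The alveolar list had 10 rises and 2 falls among 19 (median 0.39), with Mfap4 above, Ces1d (a carboxylesterase) at 2.20 ± 0.13, adjusted p = 2.3e-19 and Inmt (a methyltransferase) at 1.73 ± 0.09, adjusted p = 1.7e-21. The transcription factor Tcf21 rose by 0.73 ± 0.10, and Wnt2 fell by 1.16 on the log2 scale. Contractile genes of myofibroblasts had 3 rises and 6 falls among 18 (3 to 5 rises and 5 to 7 falls on leaving out a library; median −0.06). Acta2, the smooth muscle actin that defines the myofibroblast, had 949 to 1612 CPM (median 1301) in C1q libraries and 1116, 1278 and 1325 CPM in untreated ones (0.08 ± 0.11, adjusted p = 0.57), and these ranges overlap.

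Secreted regulators of growth factors rose in several families. Among IGF1 and its binding proteins 8 of 15 rose and 3 fell (median 0.76). Igfbp5 had 910.0 to 1011 CPM (median 919.7) in C1q libraries, against 132, 134 and 153 CPM in untreated ones (2.74 ± 0.09, adjusted p = 7.6e-28), Igfbp4 rose by 2.17 ± 0.09, and Igf1 itself by 1.26 ± 0.09. The BMP list had 14 rises and 2 falls among 25 (median 0.57), including the BMP antagonists Chrdl1 (1.64 ± 0.19) and Nbl1 (1.07 ± 0.12), the receptor Bmpr1a (1.08 ± 0.09) and the inhibitory Smad6 (0.92 ± 0.20). The Wnt list had 8 rises and 4 falls among 21. Its secreted antagonist Sfrp2 had 92.5 to 139 CPM (median 107) in C1q libraries, against 6.84, 10.4 and 11.9 CPM in untreated ones (3.46 ± 0.16, adjusted p = 3.8e-23). Sfrp1 had 1271 to 1541 CPM (median 1498) in C1q libraries, against 431, 435 and 447 CPM in untreated ones (1.73 ± 0.07, adjusted p = 5.0e-24). Sfrp4 rose by 2.12 ± 0.54, whereas Frzb, another secreted antagonist, fell by 1.12 and Lgr5, a receptor for R-spondins, by 1.51 on the log2 scale. The TGF-beta list had 6 rises (3 to 6 on leaving out a library) and 8 falls among 21 (median 0.02), with the receptor Tgfbr2 at 1.09 ± 0.08, adjusted p = 4.7e-15 and the activin gene Inhba at −1.07 ± 0.10, adjusted p = 5.3e-13. Of 9 tested ligands, receptors and regulators of the EGF receptor family, 3 fell and none rose. Hbegf, a ligand bound by heparin, had 1.80 to 5.69 CPM (median 4.40) in C1q libraries, against 35.8, 37.4 and 43.3 CPM in untreated ones (−3.21 ± 0.22, adjusted p = 5.8e-17). Areg, another ligand, had 5 counts in C1q libraries and 30 in untreated ones.

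Genes of DNA replication and mitosis fell almost without exception. All 38 tested DNA replication genes fell (median −1.72), and 35 of 36 mitosis genes fell (median −2.79), the other being Pttg1 (−0.21 ± 0.14, adjusted p = 0.23). Cdc20, which activates the anaphase-promoting complex, had 10.7 to 16.6 CPM (median 13.3) in C1q libraries, against 102, 113 and 127 CPM in untreated ones (−3.09 ± 0.13, adjusted p = 1.5e-24). Top2a, the topoisomerase that untangles chromosomes, had 23.9 to 37 CPM (median 31.6) in C1q libraries, against 227, 239.7 and 244 CPM in untreated ones (−2.92 ± 0.10, adjusted p = 7.6e-28). Bub1, a kinase of the spindle checkpoint, had 2.56 to 5.76 CPM (median 4.37) in C1q libraries, against 36.9, 38.9 and 43 CPM in untreated ones (−3.19 ± 0.17, adjusted p = 1.4e-20). No C1q library came near an untreated one for these genes. Kif23, Kif4 and Kif11 are motor proteins of the spindle and had log2 differences of −3.16, −3.35 and −3.06. Cep55 and Ckap2l, of the midbody and the spindle, had log2 differences of −3.10 and −3.26. In the replication list, Mcm5, a subunit of the replicative helicase, had 9.24 to 17.4 CPM (median 13.4) in C1q libraries, against 62.9, 76.3 and 76.6 CPM in untreated ones (−2.43 ± 0.13, adjusted p = 9.3e-21), and Rrm2, which makes deoxynucleotides, had 9.80 to 20.1 CPM (median 11.8) in C1q libraries, against 73.2, 86.6 and 92.1 CPM in untreated ones (−2.68 ± 0.12, adjusted p = 6.1e-23). Summed levels of the mitosis list were 494 to 537 CPM in C1q libraries, against 3064 to 3399.9 CPM in untreated ones. Replication-dependent and linker histone genes went both ways, with 4 rises and 3 falls among 9 tested (median −0.14). Of 31 regulators of G1, 6 rose and 13 fell, with Cdkn1c, an inhibitor of cyclin-dependent kinases, at 0.79 ± 0.18, adjusted p = 4.8e-04 and E2f7 at −2.77 ± 0.32, adjusted p = 5.3e-10.

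Because the replication and mitosis genes fell together, promoters of some of them are shown. In the RefSeq promoter windows of GRCm38.p6 (300 bases, from 250 before to 50 after the annotated start), the word TTTGAA, the core of the CHR element found in mitotic promoters, was present on either strand in 20 of 29 mitosis genes that have a window (69.0%), against 5466 of 27025 genes (20.2%). The E2F-type word TTTNGCGC was present in 10 of 30 replication genes (33.3%), against 424 of all (1.57%). A word in a window is a description of letters only, and 23 words were searched. Genes were shown, from the largest falls down, only if they had a single annotated start and the word within the 150 bases before it. The 150 bases before the start follow, 5′ to 3′ on the gene's strand, with the word, or its reverse complement, in capitals: Cdc20 at chr4:118437344-118437493 (minus strand), Kif11 at chr19:37376232-37376381 (plus), Top2a at chr11:99024190-99024339 (minus), Ube2c, a ubiquitin-conjugating enzyme of anaphase that fell by 2.91 on the log2 scale, at chr2:164769779-164769928 (plus), Mcm5 at chr8:75109359-75109508 (plus), and Pola1, the catalytic subunit of the primase-bound polymerase, at chrX:93632156-93632305 (minus).
Cdc20: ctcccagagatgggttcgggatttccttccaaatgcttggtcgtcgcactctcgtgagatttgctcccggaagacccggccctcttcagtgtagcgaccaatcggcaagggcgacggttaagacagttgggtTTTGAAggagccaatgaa
Kif11: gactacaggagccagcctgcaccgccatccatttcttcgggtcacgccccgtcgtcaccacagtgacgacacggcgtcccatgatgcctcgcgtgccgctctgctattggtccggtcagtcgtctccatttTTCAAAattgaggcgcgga
Top2a: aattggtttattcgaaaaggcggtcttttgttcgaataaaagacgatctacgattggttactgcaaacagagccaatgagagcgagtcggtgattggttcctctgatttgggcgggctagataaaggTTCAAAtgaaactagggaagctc
Ube2c: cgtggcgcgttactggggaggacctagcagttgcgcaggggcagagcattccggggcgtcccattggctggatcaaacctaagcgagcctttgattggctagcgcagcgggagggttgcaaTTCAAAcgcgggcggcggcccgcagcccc
Mcm5: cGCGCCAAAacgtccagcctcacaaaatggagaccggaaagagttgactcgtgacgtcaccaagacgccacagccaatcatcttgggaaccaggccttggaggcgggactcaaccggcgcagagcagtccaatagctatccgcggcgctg
Pola1: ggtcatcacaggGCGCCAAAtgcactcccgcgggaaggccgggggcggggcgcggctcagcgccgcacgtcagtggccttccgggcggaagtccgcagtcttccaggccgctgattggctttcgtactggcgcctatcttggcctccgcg
In the mitotic promoters shown, the first base of the word lies at −29 to −18 relative to the start. In the replication promoters shown it begins at −149 (Mcm5) and −138 (Pola1). These were picked for a match before the start, and positions in the other windows are not given here.

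Genes of sterol and fatty acid synthesis fell as well. All 25 tested genes of cholesterol synthesis and uptake fell (median −1.29), and 14 of 15 of fatty acid synthesis fell (median −0.81). Hmgcs1, the first committed enzyme of the mevalonate pathway, had 214 to 227 CPM (median 221) in C1q libraries, against 534, 555 and 563 CPM in untreated ones (−1.32 ± 0.08, adjusted p = 2.4e-19). Fdps, which makes farnesyl pyrophosphate, had 207 to 241 CPM (median 225) in C1q libraries, against 737, 747 and 815 CPM in untreated ones (−1.78 ± 0.08, adjusted p = 1.4e-23). The groups did not overlap in either of them. Of the fatty acid genes, Scd1, the desaturase, had 111 to 151 CPM (median 126) in C1q libraries, against 379, 381 and 430.4 CPM in untreated ones (−1.64 ± 0.08, adjusted p = 6.6e-22), and Acss2, which makes acetyl-CoA from acetate, had 15.5 to 24.4 CPM (median 19) in C1q libraries, against 66.9, 67.7 and 72.6 CPM in untreated ones (−1.82 ± 0.13, adjusted p = 1.6e-16). Srebf1, the gene of a transcription factor that drives these enzymes, was the member not called (0.07 ± 0.10, adjusted p = 0.59). Summed levels of the cholesterol list were 2366 to 2427 CPM in C1q libraries, against 5692 to 6042 CPM in untreated ones.

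CCAAT, the word bound by NF-Y, was present on either strand in 16 of 17 promoters of cholesterol genes (94.1%), against 11096 of 27025 (41.1%). It was also present in 21 of 29 mitosis promoters (72.4%) and 17 of 30 replication promoters (56.7%). Of the words searched for sterol regulatory elements, the full consensus was in none of the 17 cholesterol promoters (0.0999% of all), TCACNCCAC in 1 (5.88%, against 1.44% of all) and CACCCCAC in 2 (11.8%, against 3.30% of all); these words can overlap one another. The 150 bases before the start are shown for some sterol genes, with CCAAT or its reverse complement in capitals. They have the largest falls among genes that met the same rule as above, including a single annotated start and a match in this stretch. The stretch of Mvd, mevalonate decarboxylase, is at chr8:122443423-122443572 (minus strand), and that of Nsdhl, a sterol dehydrogenase, at chrX:72918371-72918520 (plus). That of Idi1, an isomerase of the isoprenoid steps, is at chr13:8885456-8885605 (plus), and that of Tm7sf2, a sterol reductase, at chr19:6067851-6068000 (minus).
Mvd: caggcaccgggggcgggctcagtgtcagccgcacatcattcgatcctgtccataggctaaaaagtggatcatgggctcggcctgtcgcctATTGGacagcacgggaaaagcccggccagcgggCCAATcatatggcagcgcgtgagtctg
Nsdhl: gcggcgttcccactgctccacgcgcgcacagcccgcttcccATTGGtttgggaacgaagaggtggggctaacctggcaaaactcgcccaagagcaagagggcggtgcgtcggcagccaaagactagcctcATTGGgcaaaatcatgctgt
Idi1: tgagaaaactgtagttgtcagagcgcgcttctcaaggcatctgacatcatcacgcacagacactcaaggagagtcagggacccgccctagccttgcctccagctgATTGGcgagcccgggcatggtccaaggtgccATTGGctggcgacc
Tm7sf2: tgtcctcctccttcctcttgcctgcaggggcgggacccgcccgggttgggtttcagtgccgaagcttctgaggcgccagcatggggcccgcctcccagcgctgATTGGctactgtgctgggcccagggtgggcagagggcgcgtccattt
Mvd, Nsdhl and Idi1 each hold 2 matches in this stretch and Tm7sf2 holds 1, where at least 1 was required for a gene to be shown. Their log2 differences were −1.76, −1.54, −1.50 and −1.41.

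Genes of lipid efflux moved the other way. Of 16 tested LXR targets and efflux genes, 10 rose and 1 fell (median 0.72). Apoe, the apolipoprotein that carries cholesterol out of macrophages and fibroblasts, had 2763 to 2895 CPM (median 2829.6) in C1q libraries, against 392, 402 and 448 CPM in untreated ones (2.77 ± 0.08, adjusted p = 1.0e-29). Pltp, which transfers phospholipid between lipoproteins, rose by 1.16 ± 0.10, Abca8a, a transporter, by 1.48 ± 0.11 and Apoc1 by 2.43 ± 0.29. Lpcat3, a phospholipid acyltransferase, was the member that fell (−0.89 ± 0.09). Lipid storage and oxidation genes rose in 9 of 25 and fell in 2 (2 to 5 on leaving out a library; median 0.12), with Cd36, a fatty acid receptor of macrophages and stromal cells, at 1.55 ± 0.15, adjusted p = 1.9e-12 and Lipe, a lipase of lipid droplets, at 1.52 ± 0.23, adjusted p = 6.5e-07. Cathepsins, the lysosomal proteases, rose in 10 of 15 and fell in 2 (median 0.43).

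**Figure D3:**
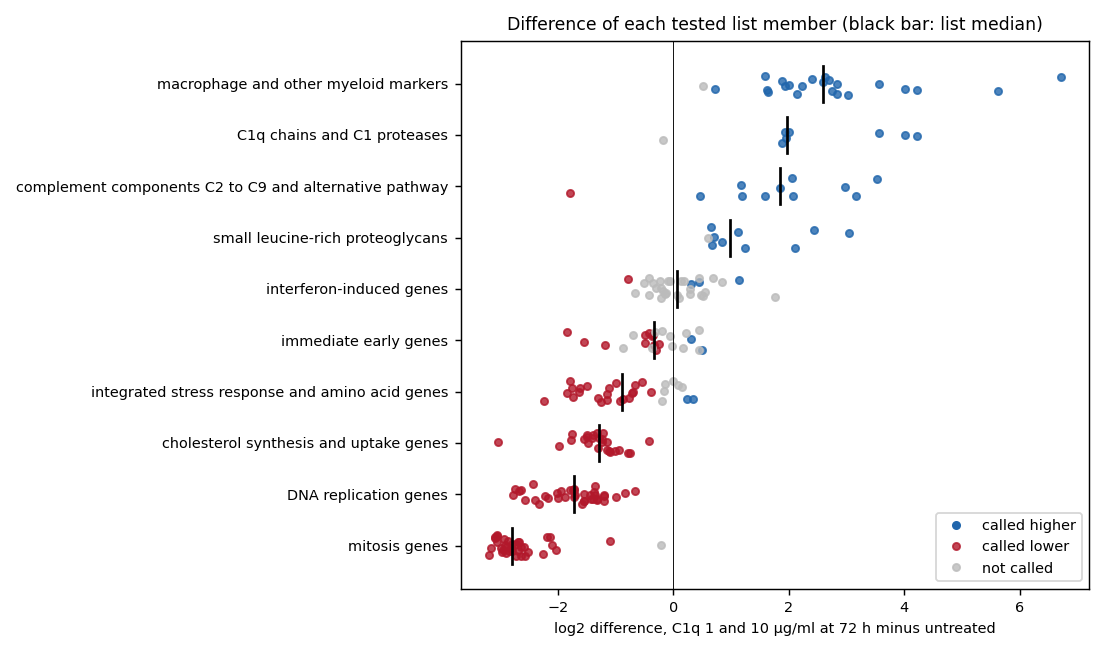
Log2 difference between C1q libraries at 72 h and untreated libraries for each tested member of 10 gene lists, with each point a gene and each black bar the median of its list. Mitosis members lie around −2.79, cholesterol members around −1.29 and myeloid members around 2.59; the highest myeloid point, Ear2, is a fitted value that rests on no counts in untreated libraries.

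Genes of protein synthesis and its supply were lower in treated cells. Of 83 tested ribosomal protein genes 70 fell and none rose (median −0.40), and together they took 6.70 to 7.53% of counts in C1q libraries, against 9.58 to 10.2% in untreated ones. Rps2, of the small subunit, had 1561 to 1759 CPM (median 1613) in C1q libraries, against 3638, 3686 and 3816 CPM in untreated ones (−1.19 ± 0.08, adjusted p = 6.4e-17). Of 36 ribosome biogenesis genes 29 fell and none rose (median −0.60), with Nop58, of the snoRNA particles that modify ribosomal RNA, at −1.20 ± 0.11, adjusted p = 3.7e-13. The integrated stress response and amino acid list had 22 falls and 2 rises (0 to 2 on leaving out a library) among 30 (median −0.89). Mthfd2, a mitochondrial enzyme of one-carbon metabolism, had 23.6 to 32.9 CPM (median 25.6) in C1q libraries, against 117, 121 and 136 CPM in untreated ones (−2.23 ± 0.11, adjusted p = 3.9e-22). Asns, asparagine synthetase, had 28.6 to 34.1 CPM (median 32.1) in C1q libraries, against 105, 118 and 119 CPM in untreated ones (−1.85 ± 0.10, adjusted p = 1.1e-20). Phgdh, Psat1 and Psph, the enzymes of serine synthesis, had log2 differences of −1.49, −1.75 and −1.61. These enzymes of serine and one-carbon supply were lower in every C1q library than in any untreated one.

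Genes of protein quality control and energy metabolism were lower too. Proteasome subunits fell in 28 of 31 (median −0.41) and cytosolic chaperones in 23 of 29 with 1 rise (0 or 1 on leaving out a library; median −0.50). Hsph1, a large heat shock protein, had 43 to 52.9 CPM (median 44.7) in C1q libraries, against 94.6, 112 and 115 CPM in untreated ones (−1.19 ± 0.09, adjusted p = 1.3e-15), and the chaperonin subunit Tcp1 fell by 0.81 on the log2 scale. Folding and secretion genes of the endoplasmic reticulum fell in 15 of 26 and rose in 2 (median −0.34), with Hspa5, its main chaperone, at −0.66 ± 0.06, adjusted p = 8.9e-12. Oxidative phosphorylation genes fell in 27 of 39 and none rose (median −0.36), with Cycs, cytochrome c, at −0.74 ± 0.11, adjusted p = 2.2e-07. Glycolysis and hypoxia genes fell in 11 of 28 and rose in 3 (median −0.21); Hk2, a hexokinase, fell by 1.54 on the log2 scale, and Car9, a carbonic anhydrase induced by hypoxia, rose by 3.11 ± 0.35. Antioxidant targets of NRF2 fell in 24 of 32 and rose in 4 (median −0.52). Nqo1, a quinone reductase and standard readout of NRF2, had 7.03 to 9.38 CPM (median 8.41) in C1q libraries, against 52.8, 61.7 and 64.2 CPM in untreated ones (−2.85 ± 0.13, adjusted p = 2.0e-23), without overlap. Tkt, of the pentose phosphate pathway, had a log2 difference of −1.11 ± 0.08, adjusted p = 1.6e-16.

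Many genes of serum and mechanical response were lower in C1q libraries. Of 23 tested YAP and SRF targets, 15 fell and 3 rose (1 to 3 on leaving out a library; median −0.36). Ankrd1, a YAP target, had 5.81 to 8.95 CPM (median 7.29) in C1q libraries, against 24, 24.7 and 27.2 CPM in untreated ones (−1.81 ± 0.21, adjusted p = 1.5e-09). Ccn2, a matricellular protein also called CTGF, had 57.6 to 75.9 CPM (median 65.8) in C1q libraries, against 166, 175 and 209 CPM in untreated ones (−1.47 ± 0.10, adjusted p = 2.0e-17). Both were lower in every C1q library. Immediate early genes fell in 11 of 24 (7 to 11 on leaving out a library) and rose in 2 (0 to 3), with a median of −0.33, with Fosl1 at −1.84 ± 0.29, adjusted p = 1.3e-06 and Myc at −1.54 ± 0.25, adjusted p = 1.8e-06. Feedback genes of ERK fell in 7 of 19 (4 to 8 on leaving out a library) and rose in 2 (1 or 2), with Dusp4, a MAP kinase phosphatase, at −1.39 ± 0.32, adjusted p = 4.0e-04.

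Metallothioneins and zinc transporters went both ways: of 13 tested, 5 rose (3 to 5 on leaving out a library) and 4 fell (median 0.01). Mt1, a metallothionein that buffers zinc and copper, had 80.5 to 120.2 CPM (median 99.0) in C1q libraries, against 324, 349 and 401 CPM in untreated ones (−1.84 ± 0.11, adjusted p = 6.4e-19), and Mt2 fell by 1.39 on the log2 scale. Slc39a10, a zinc importer, had 147 to 189 CPM (median 174) in C1q libraries, against 67.4, 69.7 and 75.4 CPM in untreated ones (1.27 ± 0.09, adjusted p = 1.5e-16), and Slc30a1, the exporter of the cell membrane, fell by 1.22 on the log2 scale. Of iron genes 8 of 18 rose and 4 fell, including Trf (transferrin, 1.62 ± 0.10) and the exporter Slc40a1 (0.87 ± 0.16).

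Epithelial genes were much lower in treated cells: 12 of 14 tested markers fell, none rose, and the median was −2.74. Krt8, a keratin of simple epithelia, had 15.1 to 27.5 CPM (median 20.8) in C1q libraries, against 155, 169 and 181 CPM in untreated ones (−2.97 ± 0.12, adjusted p = 5.4e-25). Ager, a marker of the flat alveolar epithelium, had 3.20 to 6.20 CPM (median 4.59) in C1q libraries, against 43, 45.8 and 49.7 CPM in untreated ones (−3.31 ± 0.16, adjusted p = 1.5e-22). Cldn18, a tight junction protein of alveolar epithelium, had 5.04 to 11.1 CPM (median 8.20) in C1q libraries, against 91.1, 100.0 and 107 CPM in untreated ones (−3.59 ± 0.14, adjusted p = 5.8e-26). The groups were far apart in each of these. Scgb1a1, the secretoglobin of club cells, had 1 count in C1q libraries and 87 in untreated ones, a ratio of 0.00497 with a 95% exact counting interval of 0.000124 to 0.0284. Sftpb and Nkx2-1 were not called (−0.28 ± 0.27, adjusted p = 0.42, and −0.53 ± 0.36, adjusted p = 0.23). Mesothelial markers rose in 7 of 10 and fell in none (median 0.87), with Upk3b, a uroplakin, at 1.58 ± 0.11, adjusted p = 2.9e-17 and Msln, mesothelin, not called (−0.26 ± 0.15, adjusted p = 0.14). Endothelial markers rose in 3 of 11, with Pecam1, the gene of the depleted CD31 antigen, at 0.87 ± 0.23, adjusted p = 0.0019.

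The next comparison asked how far levels at 72 h had moved from those at 48 h with the same doses, 6 libraries each. It shares the 72 h libraries with the comparison above and is given by its own values. At 72 h 883 genes were higher (6.12% of those tested) and 923 were lower (6.4%) than at 48 h, together 1806 genes (12.5%). Of 24 immediate early genes 22 were lower and none was higher (median −1.20), and of 23 YAP and SRF targets 18 were lower and 1 was higher (median −0.57). Predicted genes and unnamed transcripts were again left out of the ranking. Among genes with the same minimum level and groups that did not overlap, the largest differences upward were those of Txnip, Mrc1, Fcrls, Hpgds, Bmf, Wfdc17, Spi1 and Cxcl13 (log2 1.27 to 2.00), and downward those of Nr4a1, Ccn1, Ereg, Myc, Ccn2, Fos, Ankrd1 and Plk2 (−3.21 to −1.98). Nr4a1, an orphan receptor gene induced within an hour of many stimuli, averaged 5.63 ± 1.05, 119.5 ± 29.7, 7.64 ± 2.57, 32.3 ± 10.00 and 3.52 ± 1.22 CPM at 0, 2, 24, 48 and 72 h (SD, n = 3 at 0 h and 6 at each later time), and its log2 difference between 72 and 48 h was −3.21 ± 0.25, adjusted p = 6.6e-14. Ccn1, a matricellular YAP target, averaged 137 ± 7.83, 236 ± 34.6, 50.8 ± 8.48, 434 ± 60.6 and 49.6 ± 6.85 CPM at the same times (−3.13 ± 0.10, adjusted p = 1.1e-27 for 72 against 48 h). Both were high at 2 and again at 48 h and low at 72 h, so for such genes the difference from untreated cells depends on the time chosen.

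Myeloid markers went on rising, with 20 of 23 higher at 72 than at 48 h and none lower (median 0.95). Mrc1 averaged 0.902 ± 0.133, 1.35 ± 1.05, 1.99 ± 0.735, 15.4 ± 2.09 and 46.6 ± 6.94 CPM at 0, 2, 24, 48 and 72 h (1.59 ± 0.14, adjusted p = 9.8e-13 for 72 against 48 h). C1qb averaged 8.03 ± 2.95, 11 ± 1.98, 27.4 ± 5.32, 73.7 ± 6.73 and 156 ± 12.7 CPM (1.08 ± 0.08, adjusted p = 3.3e-14). Each mean was above the one before it in both genes. C7 averaged 23.4 ± 3.94, 46.3 ± 9.16 and 70.9 ± 4.42 CPM at 24, 48 and 72 h (0.62 ± 0.11, adjusted p = 3.8e-05), and the 11 complement components had 4 higher and none lower at 72 h. Replication genes differed little in this interval, 2 of 38 lower, whereas 16 of 36 mitosis genes were lower and 1 was higher (median −0.40). Cdc20 averaged 114 ± 12.5, 82.0 ± 11.7, 45.6 ± 7.62, 15.8 ± 3.81 and 13.2 ± 1.99 CPM at 0, 2, 24, 48 and 72 h, with its largest steps before 48 h. Cholesterol genes had 9 higher and none lower of 25 at 72 h (median 0.16). Txnip, a glucose-responsive arrestin, averaged 20.4 ± 3.38 CPM at 48 h and 81.7 ± 7.30 CPM at 72 h (2.00 ± 0.11, adjusted p = 9.6e-20), and the glycolysis list had 12 higher and 2 lower of 28.

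**Figure D4:**
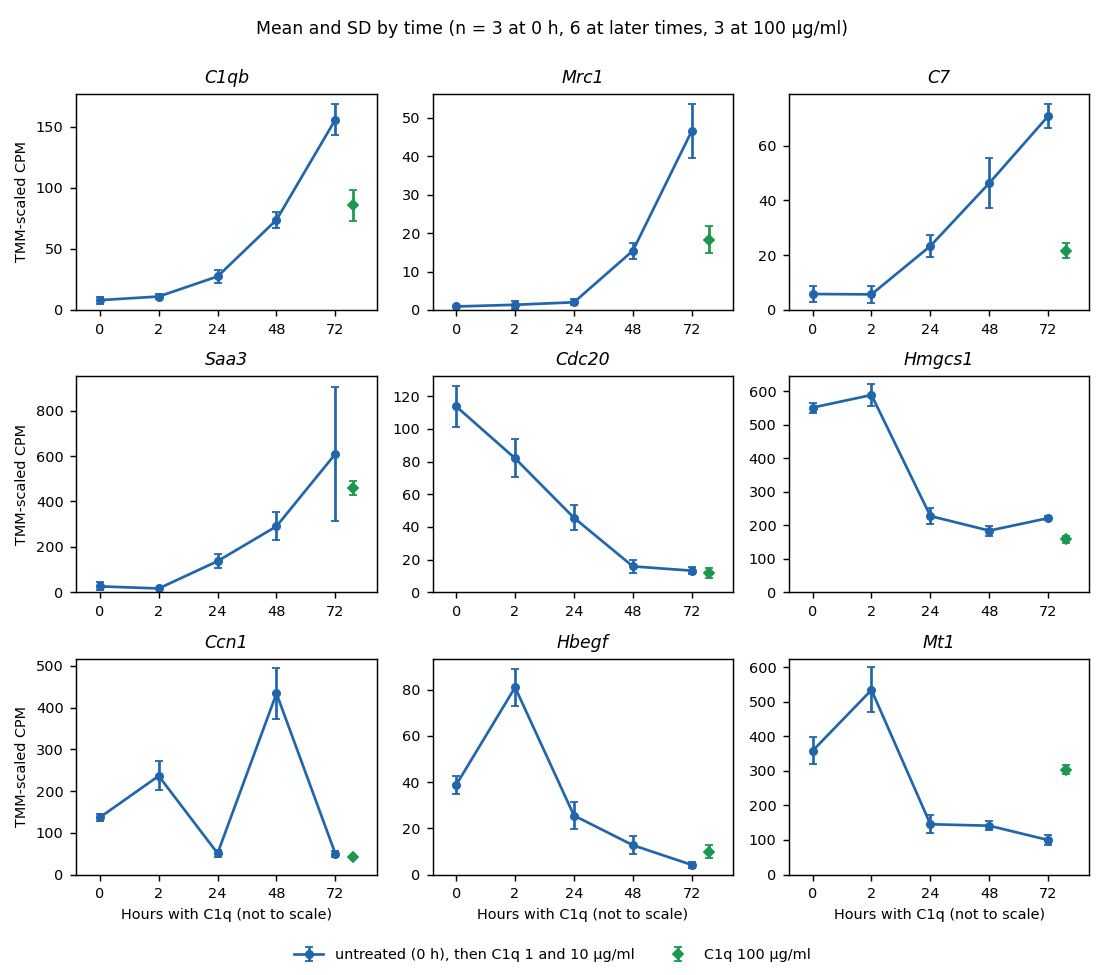
Mean level with SD (CPM, linear axis) of 9 genes at 0, 2, 24, 48 and 72 h for 1 and 10 µg/ml, with 100 µg/ml at 72 h as a green diamond; the hours axis is not to scale, and the value at 0 h is that of untreated cells. C1qb, Mrc1 and C7 climb to 72 h, Cdc20 falls early, Ccn1 is high at 2 h and highest at 48 h, Hbegf is highest at 2 h, and the diamond lies below the lower doses at 72 h for C1qb, Mrc1 and C7 and above them for Mt1.

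At 100 µg/ml the same time point looked different from the lower doses. The lower-dose libraries at 72 h are those of the comparisons above. Against the 6 lower-dose libraries, 952 genes were higher (6.6%) and 1197 lower (8.3%) in the 3 libraries at 100 µg/ml, together 2149 (14.9%). Without the second replicate at 100 µg/ml the count was 1405. The ranking here also left out predicted genes and unnamed transcripts. Among genes with that minimum level and groups that did not overlap, the largest differences upward were those of Tnfrsf26, Mt2, Mt1, Gpr27, Mettl7a2, Zfp862-ps, Flt3l and Col27a1 (log2 1.32 to 2.58), and downward those of Wfdc17, Fabp4, Ccl6, Bcl2a1b, Ccn3, Spp1, A2m and C7 (−2.38 to −1.71). Of 83 ribosomal protein genes 81 were lower (median −0.60), and of 39 oxidative phosphorylation genes 20 were lower (median −0.31); none was higher in either list. Myeloid markers were lower in 13 of 23 and higher in none (median −0.67). C1qb averaged 85.7 ± 12.7 CPM at 100 µg/ml and 156 ± 12.7 CPM at the lower doses (−0.87 ± 0.10, adjusted p = 2.4e-08). C7 averaged 21.7 ± 2.78 CPM at 100 µg/ml and 70.9 ± 4.42 CPM at the lower doses (−1.71 ± 0.16, adjusted p = 3.8e-11). Wfdc17 averaged 14.7 ± 1.80 CPM at 100 µg/ml and 76.7 ± 10.7 CPM at the lower doses (−2.38 ± 0.18, adjusted p = 5.9e-14). All were lower at the high dose but above the untreated means of 8.03, 5.82 and 4.30 CPM. Spp1, osteopontin, averaged 161 ± 15.3 CPM at 100 µg/ml and 552 ± 82.3 CPM at the lower doses (−1.78 ± 0.11, adjusted p = 1.8e-17).

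Sterol genes were lower still at 100 µg/ml, 16 of 25 with none higher (median −0.43). The integrated stress response list had 15 higher and 1 lower of 30 (median 0.39). Mt1 averaged 303 ± 13.2 CPM at 100 µg/ml and 99.7 ± 13.8 CPM at the lower doses (1.60 ± 0.11, adjusted p = 2.7e-15), beside 358 ± 39.5 CPM in untreated cells. Slc30a1, whose level is under that minimum, averaged 13.5 ± 4.80 CPM at 100 µg/ml and 3.62 ± 1.11 CPM at the lower doses (1.89 ± 0.25, adjusted p = 3.2e-07). Slc39a10 averaged 56.8 ± 0.781 CPM at 100 µg/ml and 171 ± 14.9 CPM at the lower doses (−1.59 ± 0.09, adjusted p = 1.1e-17). Of the 13 metallothioneins and zinc transporters tested, 3 were higher and 3 were lower at the high dose (median 0.05). Fibrillar collagens had 5 higher and none lower of 10, and alveolar fibroblast markers had 10 higher and none lower of 19 (median 0.26).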

How the data were processed

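RNA was measured by 5′ sequencing of polyA RNA in 39 libraries of mouse lung fibroblasts. The authors deposited raw counts per gene in 1 table of 30012 gene rows. Per the submitters' processing notes, cutadapt 2.1.0, Bowtie2 2.4.2 and the build GRCm38 were used. How reads were assigned to genes, with which annotation and whether by strand, is not given in the sources used here, so overlapping genes, antisense genes and near-identical copies are uncertain.

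Groups were taken from the treatment and time labels. All 39 libraries were fitted with a mean for each of 13 groups of 3 by edgeR 4.0.16 in R 4.3.3 (TMM scaling, quasi-likelihood test). The filter filterByExpr (minimum count 10, minimum total 15) left 14419 gene rows. Benjamini-Hochberg adjustment ran over all of them, with a threshold of 0.05. In the main contrast each lower dose had a weight of 0.5. SE is that of the log2 difference, taken from its F statistic, and SD is over libraries. The fit was also run on simulated counts in which only a small set of genes changed, and only in the lower-dose groups at 72 h. That setting differs from these data, and its outcome is not given here.

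Depth ran from 1806106 to 3012518 counts per library; intervals for low counts cover counting error only. Pairs of replicates differed by more than sampling noise: chi-square per degree of freedom was 4.34 and 4.05 for pairs with the third replicate at 1 µg/ml and 1.49 to 2.09 for the other pairs among these 9 libraries.

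The members and gene lists were chosen with earlier results of these data known. Named were the 12 largest rises and falls with adjusted p under 0.05, a mean log2(CPM + 1) of at least 3, groups that do not overlap and a call kept on leaving out each library; the 6 members of each list with the largest difference; and up to 8 genes each way in the other comparisons. Predicted genes and unnamed transcripts, such as Gm, Rik and LOC symbols, were left out of the rankings. Further list members were named for their role after their values were seen. Some genes that meet the rule are not reported here. Alternatives were RLE scaling, DESeq2 1.42.0, no filter, other thresholds, thinned counts, each dose alone, a fit of the libraries compared, a fit without the most abundant row, and leaving out each library.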

Additional observations from a re-analysis of the deposited data

Results flagged for a closer look

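Over the 6 C1q libraries at 72 h, 98 items were screened: gene levels, sums over tested list members, and library measures such as total counts. Of these, 5 had a library far from the others by Dixon's test, and chance gives about 1 in 20. The first replicate at 10 µg/ml held 4 of these: Saa3 at 1203 CPM, with the other libraries at 411 to 577; the acute-phase sum at 3613 CPM, with the others at 2555 to 2796; the MHC class I sum at 2399 CPM, with the others at 1954 to 2034; and the endoplasmic reticulum folding sum at 7756 CPM, with the others at 7426 to 7515. Saa3 is part of the acute-phase sum, so its flag and that of the sum are not separate observations. In the second replicate at 1 µg/ml the alveolar fibroblast sum was low, at 5568 CPM, with the others at 5816 to 5944.

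With the same doses, 1806 genes differed between 72 and 48 h, and at the same time 2149 genes differed between 100 µg/ml and the lower doses, both by a direct test.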

How the results depend on the processing

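The count of genes that differed between C1q at 72 h and untreated cells was 6462, and 4826 at an adjusted p under 0.01, 6457 with RLE scaling, 6218 without the filter, 5559 with thinned counts, 6441 without the most abundant row, 5555 with DESeq2, 5511 with 1 µg/ml alone and 5748 with 10 µg/ml alone. With a log2 difference of at least 1 it was 1826, which is smaller by construction. Leaving out a library gave 5523 to 6428. For 10 against 1 µg/ml the count was 0, and 7 without the filter; leaving out a library gave 0 to 0. For 72 against 48 h it was 1806, with 967 at an adjusted p under 0.01, 227 at a log2 difference of at least 1, and 1387 to 1698 on leaving out a library. For 100 µg/ml against the lower doses it was 2149, with 1235 and 268 under the same limits, and 1405 to 2056 on leaving out a library. Of 442 genes followed through the main comparison none changed sign where called; 428 kept their side of the threshold with DESeq2, 442 with RLE scaling and 421 without the first untreated library. The cause of the other changes was not tested.

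Limits: no untreated cells at 72 h were analysed here, the untreated group has 3 libraries, and genes under about 10 counts per library were mostly not tested. No paired analysis was possible because the replicate numbers were given in accession order and mark no shared mouse, culture or day.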

Other observations

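Nuclear long noncoding RNAs were mostly higher in C1q libraries at 72 h: 7 of 11 tested rose and 1 fell (0 to 2 on leaving out a library; median 0.45), with Neat1, the scaffold of paraspeckles, at 360.1 to 419 CPM (median 382) in C1q libraries, against 163, 168 and 171 CPM in untreated ones (1.20 ± 0.08, adjusted p = 9.0e-17). Axon guidance and adhesion genes had 19 rises and 10 falls among 44 (median 0.30). Slit3, a guidance ligand, had 121 to 162 CPM (median 131) in C1q libraries, against 34.1, 34.2 and 44.5 CPM in untreated ones (1.87 ± 0.15, adjusted p = 1.9e-14), and Cdh2, N-cadherin, had 3.91 to 9.29 CPM (median 7.19) in C1q libraries, against 13.2, 16 and 21.7 CPM in untreated ones (−1.33 ± 0.21, adjusted p = 8.9e-07). Clock genes rose in 6 of 18 and fell in 3, with Ciart, a repressor of the clock, at −1.53 ± 0.39, adjusted p = 0.0014. FOXO targets and alpha-arrestins rose in 11 of 23 and fell in 4 (median 0.42), and autophagy genes rose in 4 of 26 and fell in 2 (1 to 3 falls on leaving out a library), with Gabarapl1, of the autophagosome membrane, at 1.23 ± 0.07, adjusted p = 2.0e-19 and Ulk1, the kinase that starts autophagy, at 1.06 ± 0.21, adjusted p = 3.9e-05.

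Among growth factor genes, Vegfa, the main angiogenic factor, had 19.6 to 26.7 CPM (median 21.4) in C1q libraries, against 51.6, 56.2 and 57.3 CPM in untreated ones (−1.28 ± 0.12, adjusted p = 2.8e-12). Vegfc, a factor of lymphatic vessels, had 22.7 to 33.1 CPM (median 25) in C1q libraries, against 6.41, 11.5 and 12.1 CPM in untreated ones (1.44 ± 0.23, adjusted p = 1.7e-06), and Vegfd, another of that kind, rose by 1.19 ± 0.07. Fgfr4, a receptor for fibroblast growth factors, rose by 1.67 ± 0.46 and Angptl4, an inhibitor of lipoprotein lipase, by 1.55 ± 0.16. The PDGF and FGF list had 10 rises and 3 falls among 23 (3 to 5 falls on leaving out a library; median 0.30). Class I MHC presentation genes rose in 4 of 14 and fell in 1 (0 or 1 on leaving out a library), with B2m, the light chain, at 910.0 to 1237 CPM (median 949.8) in C1q libraries, against 391, 453 and 491 CPM in untreated ones (1.17 ± 0.11, adjusted p = 3.8e-12). The highest B2m value was that of the first replicate at 10 µg/ml.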
